A study of Mus musculus with 7 samples.

Results

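The cells described here were selected on 2 leukocyte genes. Of the 8453 cells in 7 libraries of thymic cells sorted as EpCAM+ CD45-, 175 (2.07%, exact binomial 95% interval 1.78 to 2.40) held at least 1 UMI of *Ptprc* and at least 1 UMI of *Laptm5*. A UMI (unique molecular identifier) is a tag that counts a single captured RNA molecule. *Ptprc* encodes CD45, the surface protein the sort selected against, and lies on chromosome 1 (138062861 to 138175708, minus strand, GRCm38). *Laptm5* encodes a lysosomal membrane protein of blood cells and lies on chromosome 4 (130913125 to 130936141, plus strand). The rule was meant to find immune cells that had passed the sort, but for many of the cells the data went against that label. Of the 175 cells, 126 (72.0%, 64.7 to 78.5) fell in clusters whose most detected genes were those of thymic tuft cells or of other thymic epithelial cells. Among these were 32 cells of a cluster that was given no name, without which 94 cells (53.7%, 46.0 to 61.3) remain. Another 49 (28.0%, 21.5 to 35.3) fell in clusters led by T cell or myeloid genes. With 2 or more UMIs of each gene the epithelial clusters held 50.8% and T cell-like clusters 49.2% of 59 cells. Only 4 clusters formed at that setting, none of them of a myeloid class, so any myeloid cells among the 59 were counted in these shares. With both genes still present after each cell was thinned to 2000 UMIs, epithelial and T cell-like clusters held 45.2% and 42.9% of 42 cells. The 175 are therefore called *Ptprc* *Laptm5* cells below.

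The libraries were droplet-based scRNA-seq of thymi pooled 3 at a time, with 1 library for each group, all from C57BL/6 mice. The *Aire* trace library came from mice of 6 weeks that carried Aire-CreERT2-R26-CAG-Stopfl-zsGreen, in which tamoxifen (2 mg every other day over 10 days) marks *Aire*-expressing cells with ZsGreen through a Cre driven from *Aire*. Isotype controls had received 3 treatments of 100 µg isotype antibody and were taken at week 2 (age 4 weeks) and week 10 (age 12 weeks). Anti-RANKL mice had received 3 treatments of 100 µg of an antibody against RANKL, a cytokine on which medullary epithelial cells depend, and were taken at week 2, 4, 6 and 10 (ages 4, 6, 8 and 12 weeks). Since each group was 1 pool of 3 thymi, differences between libraries were not tested, and intervals and limits given here cover counting error only.

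Most cells of the thymus are developing T cells. Thymocytes that carry both CD4 and CD8 and recombine their receptor genes with RAG1 fill the cortex, where cortical thymic epithelial cells present the peptides of positive selection with the help of the proteasome subunit PSMB11 and the serine protease PRSS16. Mature T cells, B cells, macrophages and dendritic cells gather in the medulla among medullary epithelial cells. Tuft cells are chemosensory epithelial cells of the medulla that use TRPM5 and make IL-25.

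The 7 libraries held 730 to 1475 cells, with total UMIs between 3857876 and 22197691 and median UMIs per cell between 4299.5 and 16809. In all, 50 cell barcodes occurred in 2 or more libraries, and 2 of the 175 cells carried such a barcode. A doublet caller marked 31 of 8453 cells (0.367%), too few to be relied on, and 2 of them were *Ptprc* *Laptm5* cells, so no cell was removed as a doublet. Median depth was 10519 UMIs in the *Ptprc* *Laptm5* cells and 8015 in the other 8278 cells. More than 2 times the median depth of the own library was found in 25.1% of the former and 11.1% of the latter.

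The 2 genes of the rule differed in how widely they were detected. *Ptprc* had a UMI in 233 cells and *Laptm5* in 3592 cells, which was 42.5% of all cells. A UMI of *Laptm5* thus removed only 58 of the 233 *Ptprc* cells. Just inside the rule stood 31 cells with 1 UMI of each gene, and 99 of the 175 cells had a single *Ptprc* UMI. Just outside stood the 58 cells with *Ptprc* and no *Laptm5*, of which 46 had 1 *Ptprc* UMI and the highest had 4. Another 3417 cells had *Laptm5* without *Ptprc*, with up to 48 UMIs. The highest values among the *Ptprc* *Laptm5* cells were 24 UMIs of *Ptprc* and 25 UMIs of *Laptm5*.

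Cells of 2 kinds held most of the *Ptprc*. Of the 80 cells in all libraries with 6 or more of the 14 T cell genes listed in the files, 59 (73.8%, 62.7 to 83.0) had a *Ptprc* UMI. Of the 391 cells with 6 or more of 10 tuft genes, 88 (22.5%, 18.5 to 27.0) had one, and of the 7984 remaining cells 88 (1.10%, 0.885 to 1.36) had one. Median depths of the 3 kinds were close, with 8902.5, 8574 and 8036.5 UMIs per cell. When each cell was thinned to 2000 UMIs, *Ptprc* was detected in 33.8%, 8.40% and 0.320% of them, which is the same order. The pooled level of *Ptprc*, in UMIs per 1000000 (CPM), was 186 in the cells with T cell genes, 32.0 in those with tuft genes and 1.76 in the rest. *Laptm5* separated the kinds less, with 76.2%, 75.7% and 40.5% of cells. The cuts at 6 genes were set after the values were seen, 9 cells had 5 T cell genes and 8 had 6, and 2 cells passed both cuts. Both genes of the rule were met by 50 of the 80 cells with T cell genes, 77 of the 391 with tuft genes and 50 of the 7984 others.

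**Figure D1:**
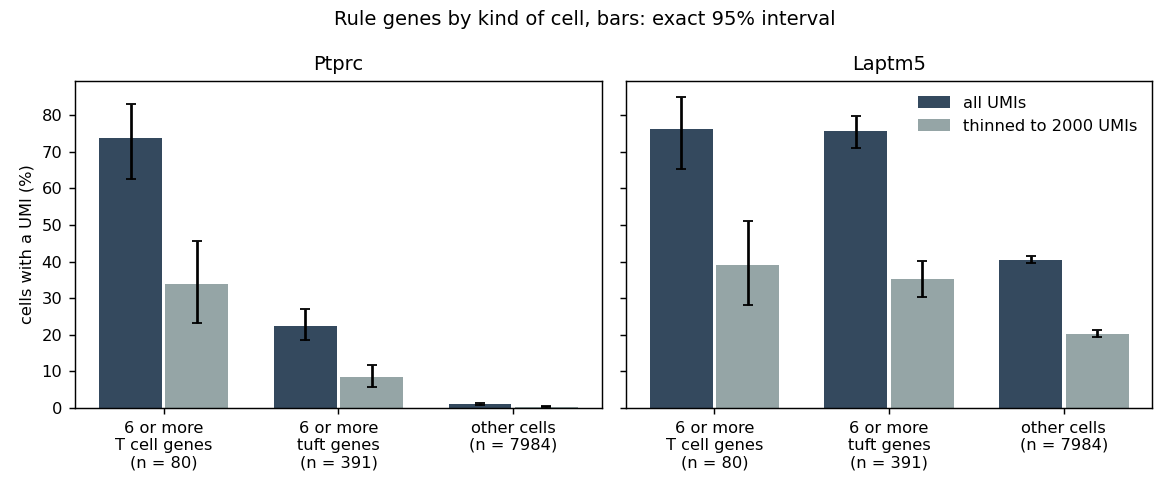
Percent of cells with a UMI of *Ptprc* (left) and *Laptm5* (right) in cells with 6 or more T cell genes (n = 80), with 6 or more tuft genes (n = 391) and in other cells (n = 7984), from all UMIs (dark) and after thinning each cell to 2000 UMIs (grey), with exact binomial 95% intervals. *Ptprc* was found in 73.8%, 22.5% and 1.10% of the 3 kinds, and *Laptm5* in 76.2%, 75.7% and 40.5%.

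The 175 cells formed 8 clusters when *Ptprc*, *Laptm5* and the list of thymic epithelial genes were left out of the clustering. Clusters are called here by a leading gene, and the genes that lead a cluster describe it and are no test of it. Clusters 5 (18 cells, led by *Rag1*) and 7 (14 cells, led by *Nkg7*) were T cell-like, cluster 6 (17 cells, led by *Tyrobp*) was left unnamed, since activated dendritic cell genes were detected most but macrophage genes led it, and clusters 2 (32 cells, led by *Pth*) and 4 (24 cells, led by *Folr1*) were tuft-like. Clusters 3 (28 cells, led by *Fst*) and 8 (10 cells, led by *Gm15056*) were epithelial-like. Cluster 1 (32 cells, led by *S100a8*) was left unnamed, since its 10 leading genes held 2 neutrophil genes, although the epithelial list was the one most detected in it. T cell-like clusters made up 18.3% (12.9 to 24.8) of the 175 cells and tuft-like clusters 32.0% (25.2 to 39.5).

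**Figure D2:**
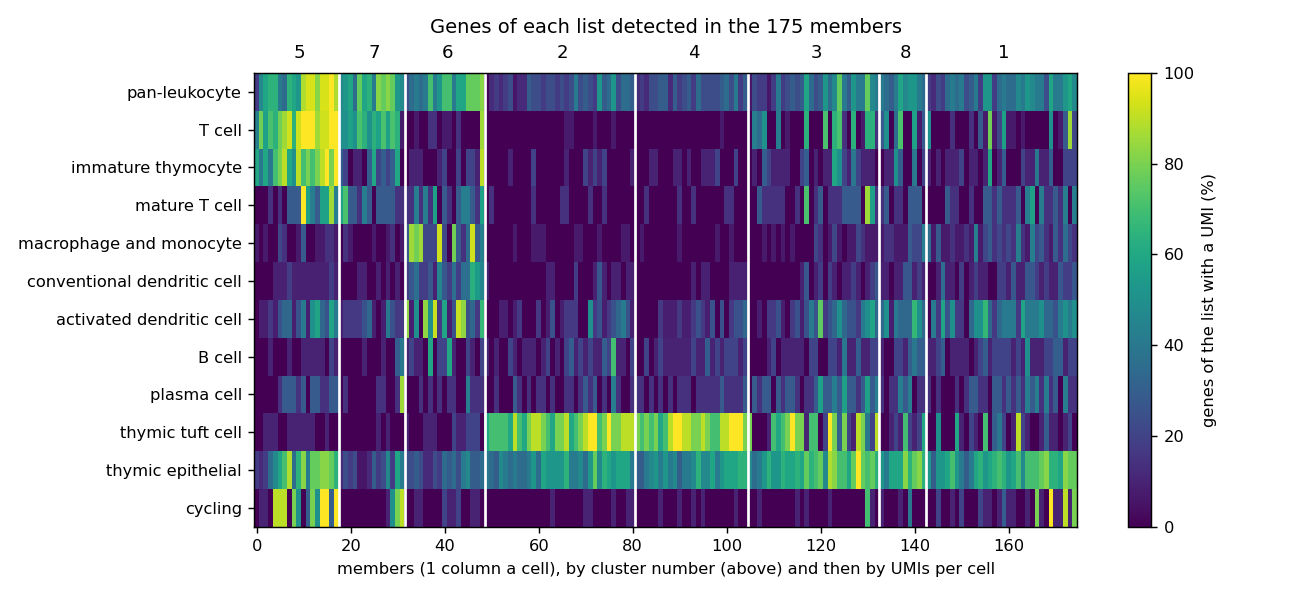
Percent of the listed genes of 12 marker lists (rows) with a UMI in each of the 175 cells (columns), ordered by cluster, whose number stands above, and by UMIs per cell within a cluster. Clusters 5 and 7 are bright for T cell genes, cluster 6 holds separate cells bright for macrophage or activated dendritic cell genes, and clusters 2 and 4 are bright for tuft genes.

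The *Rag1* cluster carried the genes of thymocytes of the cortex. *Rag1*, which cuts the receptor genes during their recombination (chromosome 2, 101638282 to 101649501, minus strand), had a UMI in 16 of its 18 cells, with a lowest, median and highest count of 0, 6 and 33 UMIs. *Rag1* was found in 0.737% of the 8278 cells outside the rule. *Dntt*, which adds bases at receptor gene junctions, was also found in 16 of 18 cells. *Cd4* and *Cd8a*, the coreceptors, were each found in 15 cells and together in 14. *Cd3e*, a subunit of the T cell receptor complex (chromosome 9, 44998740 to 45009627, minus strand), was found in 15 of 18 cells (83.3%, 58.6 to 96.4), with 0 to 24 UMIs and a median of 6.5. It was found in 1.18% of the cells outside the rule and in none of the 56 cells of the tuft-like clusters, which allows a share of cells with a UMI of up to 5.36% and sets no limit on cells that express the gene below detection. Median depth was 20798 UMIs in the *Rag1* cluster and 6461.5 and 8797 UMIs in the tuft-like clusters. *Satb1*, a chromatin organizer of thymocytes, and *Lck*, the kinase bound to the coreceptors, had a UMI in all 18 cells. *Mki67* and *Top2a*, which mark dividing cells, were found together in 8 of the 18. Cells of the cluster ranged from 1442 to 57072 UMIs, and 10 of 18 exceeded 2 times the median depth of their library. Every cell had between 6 and 14 of the 14 listed T cell genes, and the cell of 1442 UMIs had 6.

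The *Nkg7* cluster carried T cell genes, with those of receptor recombination in few of its cells. *Nkg7*, a granule membrane protein of cytotoxic lymphocytes, had a UMI in 10 of 14 cells and a pooled level of 915 CPM, against 1.57 CPM in the cells outside the rule. *Ms4a4b*, which marks mature T cells, was found in 9 of 14 cells and *Ccr7*, the receptor that guides cells to CCL19 and CCL21, in 7. *Cd3e* was found in 12 of 14 cells (85.7%, 57.2 to 98.2), with 0 to 9 UMIs and a median of 3. *Cd8a* was found in 8 cells and *Cd4* in 1, and no cell held both. *Rag1* was found in 2 cells, with 1 UMI in each, *Dntt* in 2 cells with 18 UMIs in all, and *Rag2* and *Ptcra* in 1 cell each, with 2 and 8 UMIs. *Pdcd1*, which encodes the inhibitory receptor PD-1, was among the 10 leading genes, with UMIs in 5 cells. These cells were shallower than those of the *Rag1* cluster, with 2598 to 13560 UMIs and a median of 6451.5, and none exceeded 2 times the median depth of its library. Of the 9 listed genes of innate-like T cells and natural killer cells, 4 had a UMI in the cluster, namely *Nkg7*, *Gzmb* (10 UMIs in 1 cell), *Gata3* (2 cells) and *Tbx21* (1 cell). *Gzma*, a granule protease, had 27 UMIs in 5 of the 18 cells of the *Rag1* cluster and none in this one.

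One cell of the *Nkg7* cluster went against its name. It came from the *Aire* trace library and held 1452 UMIs of *Jchain*, which encodes the joining chain of secreted antibodies (chromosome 5, 88519809 to 88527891, minus strand), or 10.7% of its 13560 UMIs. It had 93 UMIs of *Mzb1*, a chaperone of antibody-secreting cells, 12 of *Cd79a*, no *Cd3e* and no *Epcam*, and 6 of the 7 listed plasma cell genes. It was the only one of the 175 cells with more than 5 UMIs of *Jchain*.

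Other cells with the same genes stood outside the rule. Of 9 cells in all libraries with 100 or more *Jchain* UMIs, 8 did not have both *Ptprc* and *Laptm5*, and these 8 held between 121 and 2640 UMIs of *Jchain* and 5 to 7 of the 7 plasma cell genes. Of the 9, 6 came from the *Aire* trace library, 2 from anti-RANKL week 10 and 1 from isotype week 2. Among the remaining cells *Jchain* was found in 14.5% (12.7 to 16.4) of the *Aire* trace cells, with at most 5 UMIs, in 4.48% (3.36 to 5.83) of the isotype week 2 cells, with at most 17, and in 4.41% (3.32 to 5.72) of the anti-RANKL week 10 cells, with at most 45. The other 4 libraries lay between 0.409% and 2.60%. Of those 200 *Aire* trace cells, 12 were *Ptprc* *Laptm5* cells, out of 52, and whether their *Jchain* came from free RNA was not tested.

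The *Tyrobp* cluster was a mixture of several blood cells. *Tyrobp*, the signalling adaptor of myeloid receptors, had a UMI in 15 of its 17 cells. Complement genes marked 6 cells as macrophage-like, with *C1qa* (chromosome 4, 136895917 to 136898803, minus strand), *C1qb* and *C1qc* all present. In those 6 cells *C1qa* ran from 10 to 60 UMIs, *C1qc* from 24 to 53 UMIs, and 11 to 13 of the 14 macrophage and monocyte genes were detected. Activated dendritic cell genes, 10 or 11 of 12, marked 5 other cells. *Ccr7* (chromosome 11, 99144196 to 99155077, minus strand) ran from 8 to 33 UMIs in these 5 cells with a median of 12, and *Fscn1*, an actin bundler of mature dendritic cells, from 7 to 36 UMIs. *Ccl22*, a chemokine of activated dendritic cells (chromosome 8, 94745590 to 94751699, plus strand), varied from 0 to 158 UMIs with a median of 3. Outside this cluster, a cell of the *Fst* cluster held 9 of the 12 genes, with 14 UMIs of *Ccr7*, 10 of *Ccl22* and 18 of *Fscn1*, beside 13 of the 17 epithelial genes. In the *Gm15056* cluster *Ccr7* and *Fscn1* were found together in 6 of 10 cells, of which 1 held 93 UMIs of *Ccl22*.

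Single cells made up the rest of the *Tyrobp* cluster. B cell genes, 6 of the 10 listed, marked 2 cells, with 17 and 19 UMIs of *Cd79a*, a subunit of the B cell receptor, and, in the same order, 7 and 3 UMIs of *Ms4a1*, which encodes CD20. The first of these also held 43 UMIs of *Ccl22* and 6 of *Ccr7*. A cell of 35293 UMIs from isotype week 2 held 12 of the 14 T cell genes, 17 UMIs of *Cd3e* and 11 of *Ptprc*. Of the 3 cells in none of these kinds, 1 from anti-RANKL week 2 held 17 UMIs of *Xcr1*, the chemokine receptor of cross-presenting dendritic cells, and 1 held 15 UMIs of *Siglech*, a lectin of plasmacytoid dendritic cells. Kinds within this cluster were told apart by genes after their values were seen. The cluster drew 9 cells from the *Aire* trace library, 6 from isotype week 2 and 1 each from anti-RANKL week 2 and week 4. None came from isotype week 10, anti-RANKL week 6 or anti-RANKL week 10.

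The tuft-like clusters, in which *Ptprc* is present by the rule, held tuft genes. Of the 14 listed T cell genes 11 had no UMI in them, and of the 14 macrophage and monocyte genes 8 had none, while 8 of the 10 B cell genes had at least 1. *Trpm5*, the cation channel of taste and tuft cells (chromosome 7, 143069153 to 143094642, minus strand), was found in 55 of their 56 cells at 638 CPM, against 17.9 CPM in the cells outside the rule. *Avil*, an actin-binding protein of tuft cells, and *Gng13*, a taste G protein subunit, were found in all 56, *Pou2f3*, the tuft lineage transcription factor, in 39, and *Il25* in 23. *Epcam*, the epithelial surface protein of the sort, was found in 53 of 56 cells. *Cd3e*, *Cd8a*, *Rag1*, *Lck*, *Nkg7* and *Tyrobp* had no UMI in any of the 56. Of the 17 further leukocyte genes 15 had a UMI in these clusters. *Vav1* and *Ptpn6*, signalling proteins also used by blood cells, were found in 52 and 54 of the 56 cells at 367 and 522 CPM, *Lcp1*, an actin bundler, in 39 and *Rac2*, a small GTPase, in 37. The remaining genes of the list were found in at most 10 cells. *Coro1a*, an actin regulator of leukocytes, was found in 2 of the 56, against 18 of 18 and 14 of 14 cells in the T cell-like clusters. *Cd79b*, a subunit of the B cell receptor, was found in 31 of the 56 and *Blnk*, an adaptor of that receptor, in 24, whereas *Cd79a* and *Ms4a1* were found in 1 and the same cell. That cell, from the *Aire* trace library, held 7 B cell genes, with 6 UMIs of *Cd79a* and 4 of *Ms4a1*, beside 8 tuft genes. *Ptprc* was low in the tuft-like cells, with at most 4 UMIs per cell. *Pth*, which encodes parathyroid hormone, led cluster 2 through a single cell, which held 3071 of its 3101 UMIs, and *Pth* had a UMI in 41.9% of the cells outside the rule.

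The remaining clusters counted as epithelial by their most detected list were mixed. The unnamed *S100a8* cluster carried *Aire*, the regulator of tissue-restricted antigens, in 31 of 32 cells, with up to 41 UMIs. *S100a8* and *S100a9*, calcium-binding proteins abundant in neutrophils and also made by keratinizing epithelium, were found in 24 and 18 of the 32 cells. Of the 4 other neutrophil genes, *Ly6g* had 84 UMIs in 4 cells, *Retnlg* 3 UMIs in 3 cells, *Mmp9* 1 UMI, and *Csf3r* none. The *Fst* cluster held 16 cells with 6 or more tuft genes among its 28, and the chemokine *Ccl21a* in all 28 at 11389 CPM. In the *Gm15056* cluster all 10 cells had *Epcam*, but the 17 further leukocyte genes stood at 7059 CPM, of which *Cd52* made up 4798. They stood at 3832 and 6356 CPM in the *Rag1* and *Nkg7* clusters, where more of them were detected (69.0% and 60.9%, against 43.5%). *Lyz2* was found in 8 of the 10 cells, and *Cd3d*, *Cd3e* or *Cd3g* in 6. Of the 487 UMIs of *Gm15056*, 464 were in 1 cell.

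In the 5 clusters so counted 18 cells held T cell genes and epithelial genes together. They had 6 or more of the 14 T cell genes and also 6 to 14 of the 17 epithelial genes, with a median of 11. Of the 18, 10 were in the *Fst* cluster, 5 in the *S100a8* cluster and 3 in the *Gm15056* cluster. More than 2 times the median depth of the own library was found in 10 of the 18 (55.6%), against 22 of the 108 other cells of the same 5 clusters (20.4%). Choosing cells by 6 or more genes can favour deep cells. No count at equal depth was made, so the part of depth in this difference was not tested. Whether these barcodes held more than 1 cell was not tested.

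**Figure D3:**
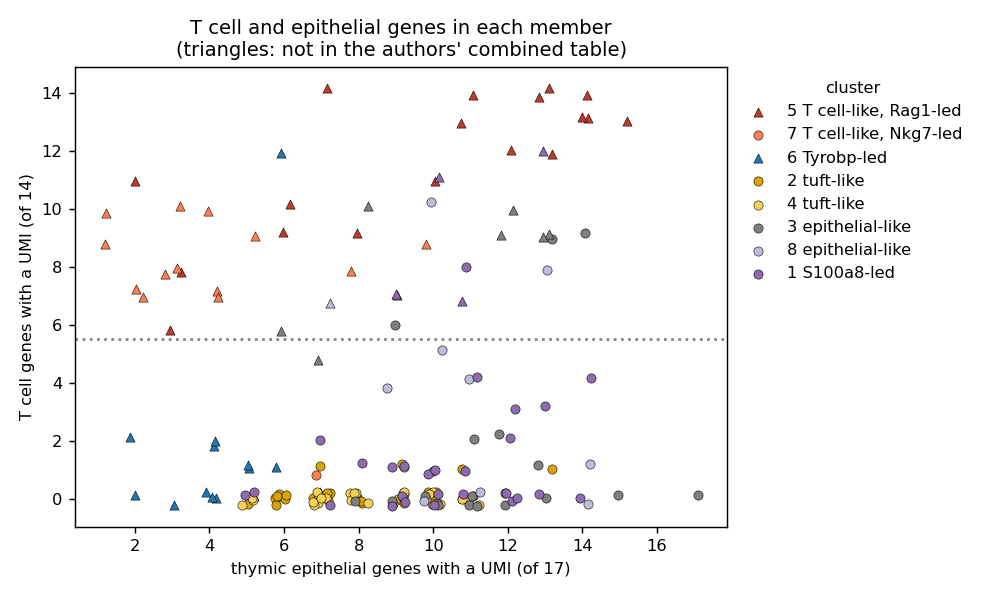
Number of thymic epithelial genes with a UMI (of 17, horizontal axis) and of T cell genes with a UMI (of 14, vertical axis) in each of the 175 cells, coloured by cluster and shifted slightly at random to part overlapping points; triangles are cells absent from the combined table and the dotted line marks 6 T cell genes. The *Rag1* cluster spans 2 to 15 epithelial genes, and 18 cells of the epithelial clusters lie above the line.

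The study's combined table of all libraries held 8326 of the 8453 cells. Per its methods, the authors took out a cluster that looked like T cells by its genes, so the absence of such cells from that table is no separate finding. Of the 127 cells left out of the table, 61 were *Ptprc* *Laptm5* cells, which was 61 of 175, and 26 had none of the 14 T cell genes. Which of the 127 belonged to the authors' cluster was not tested, since only cell names were read. All 18 cells of the *Rag1* cluster, all 17 of the *Tyrobp* cluster and 13 of 14 of the *Nkg7* cluster were left out, and the cell of that cluster that stayed was the one with 1452 *Jchain* UMIs. None of the 56 cells of the tuft-like clusters was left out. Of the 18 cells with T cell and epithelial genes together, 12 were left out, against 1 of the 108 other cells of the epithelial clusters. Over all libraries, 71 of the 80 cells with 6 or more T cell genes were left out, and 30 of those 80 did not meet the rule of *Ptprc* and *Laptm5*.

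Epithelial RNA in the blood cell clusters was measured with 17 thymic epithelial genes. They took no part in the clustering, although epithelial genes outside the list could. In the 8278 cells outside the rule the 17 genes made up 2.04% of all UMIs. In the 2 T cell-like clusters together they made up 0.945%, or 46.2% of that level (exact Poisson interval 44.9 to 47.6, 4845 UMIs in 32 cells). The level was 54.7% (53.1 to 56.3) in the *Rag1* cluster and 11.1% (9.71 to 12.7) in the *Nkg7* cluster, and the *Tyrobp* cluster stood at 5.67% (4.98 to 6.43). The pooled value weighs cells by their depth. With each cell thinned to 2000 UMIs it was 28.0% (25.3 to 30.8), and without the cells over 2 times the median depth of their library it was 19.2% (17.9 to 20.6). Without *Ccl21a* it was 80.4%, and with cells chosen after thinning 61.3%.

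The value varied widely between libraries. Against the cells outside the rule of the same library, the T cell-like cells held 1.35% of the epithelial level in anti-RANKL week 10 (1 cell), 6.27% in anti-RANKL week 4 (4 cells), 22.4% in the *Aire* trace library (10 cells), 33.0% in isotype week 2 (5 cells), 66.0% in anti-RANKL week 2 (4 cells), 70.6% in anti-RANKL week 6 (4 cells) and 122% in isotype week 10 (4 cells). In isotype week 10, 720 of the 753 epithelial UMIs were in a single cell of the *Rag1* cluster. For the *Nkg7* cluster alone the 5 libraries with such cells lay between 1.35% and 11.6%, and for the *Tyrobp* cluster the 4 libraries lay between 4.44% and 5.81%.

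The genes of the cortex set the *Rag1* cluster apart. *Prss16*, the thymus-specific serine protease (chromosome 13, 22002173 to 22009742, minus strand), stood at 2343 CPM in the *Rag1* cluster and at 117 CPM in the cells outside the rule, which is 1998% of their level (1874 to 2128). *Psmb11*, the thymoproteasome subunit (chromosome 14, 54621433 to 54629556, plus strand), stood at 777 and 44.9 CPM, or 1730% (1545 to 1929). *Ly75*, an endocytic receptor of cortical epithelium and dendritic cells, stood at 148 and 18.8 CPM, or 784% (600 to 1007). *Ackr4*, a chemokine scavenger of cortical epithelium, did not share this, with 2 UMIs and 19.8% (2.40 to 71.6).

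In the *Nkg7* cluster *Prss16*, *Psmb11* and *Ly75* had 1 UMI each, and in the *Tyrobp* cluster they had 4, 1 and 4 UMIs. After thinning to 2000 UMIs, *Prss16* was found in 7 of 17 cells of the *Rag1* cluster (41.2%) and in 12.3% of the cells outside the rule, and *Psmb11* in 41.2% and 5.45%. *Prss16* was also among the 10 leading genes of the cluster against the other *Ptprc* *Laptm5* cells. The epithelial list took no part in the clustering, but epithelial genes outside the list could, so this describes the cluster and is no separate support.

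The cortical genes sat in some cells of the *Rag1* cluster and not in others. *Prss16* reached 20 or more UMIs in 7 of 18 cells (38.9%, 17.3 to 64.3), from 5 libraries, and in 85 of the 8278 cells outside the rule (1.03%, 0.821 to 1.27). The other 11 cells held at most 4 UMIs of *Prss16*. The 7 cells had 12 to 14 of the 14 T cell genes, 3 to 36 UMIs of *Cd8a* and 3 to 5 UMIs of *Epcam*, so that thymocyte and cortical epithelial RNA were present under the same barcode. Their median depth was 29375 UMIs, against 9422 in the other 11, whose depths ran from 1442 to 57072 UMIs. The part of depth in these counts was not tested. Without the cells with 20 or more UMIs of *Psmb11* and *Prss16* together, an alternative chosen after seeing the data, epithelial RNA in the T cell-like clusters stood at 13.2% (12.3 to 14.1) of the level outside the rule. Both genes belong to the list measured, so leaving out these cells had to lower the value. Whether these barcodes held 2 cells or a complex was not tested.

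Genes of the medulla stood lower than *Prss16*, *Psmb11* and *Ly75* in the *Rag1* cluster. The interval of *Ackr4* there (2.40 to 71.6, from 2 UMIs) was too wide to order it against them. In the *Rag1* cluster *Aire* stood at 7.80% (3.74 to 14.4) of the level outside the rule, *Fezf2*, the other regulator of tissue-restricted antigens, at 10.3% (6.12 to 16.3), *Ccl21a* at 15.0% (13.9 to 16.2) and *Krt14* at 13.1% (9.82 to 17.1). *Krt5* and *Krt17*, keratins of the medulla, stood at 27.1% (22.1 to 32.8) and 48.3% (44.5 to 52.3). In the *Nkg7* cluster *Aire* stood at 48.6% (27.2 to 80.2), from 15 UMIs in 2 cells, and the other 5 of these genes lay between 4.28% (*Krt5*) and 14.6% (*Krt17*). The 1 UMI each of *Prss16*, *Psmb11* and *Ly75* there gave intervals with upper bounds of 47.8%, 125% and 297%, too wide to order them against these. In the *Rag1* cluster *Krt18* and *Krt8*, keratins of simple epithelium and of both compartments, stood at 168% and 95.1% as pooled levels. The highest cell of each gene held 359 of 1142 UMIs for *Krt18*, 255 of 600 for *Krt8* and 217 of 590 for *Krt17*. After thinning, *Krt18* was found in 58.8% of the cells of the cluster and in 83.6% of those outside the rule. *Krt8* was found in 70.6% and 84.9% and *Krt17* in 64.7% and 84.4%, in the same order. Over the 17 genes the median was 27.1% in the *Rag1* cluster, 11.6% in the *Nkg7* cluster and 6.24% in the *Tyrobp* cluster. Beside these, the medians over the 8592 genes with 10 or more CPM outside the rule were 98.9%, 71.5% and 75.3%.

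**Figure D4:**
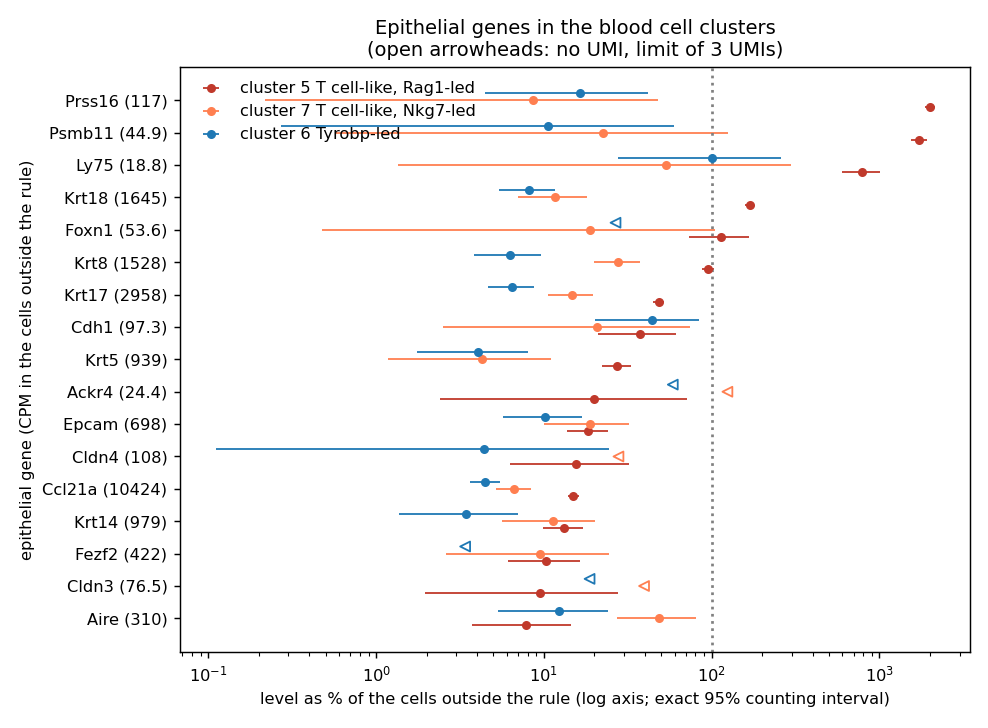
Pooled level of each of the 17 epithelial genes in the *Rag1* cluster (dark red), the *Nkg7* cluster (orange) and the *Tyrobp* cluster (blue), as a percent of the level in the cells outside the rule (log axis, dotted line at 100%), with exact Poisson 95% intervals and, for genes without a UMI, the limit of 3 UMIs; the number beside a gene is its CPM in the cells outside the rule. *Prss16*, *Psmb11* and *Ly75* lie far above the line in the *Rag1* cluster, at 1998%, 1730% and 784%, while *Aire* lies at 7.80%.

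Over all genes, those whose level outside the rule was at least 8 times that in the T cell-like cells were ranked by their UMIs in the T cell-like cells. Among the first 10 were *Gm13305* (75 UMIs in 24 of 32 cells), *S100a6* (35 UMIs), the chemokine gene *Ccl19* (31), *Cd9* (27), the milk casein *Csn2* (26), the antimicrobial lectin *Reg3g* (25), *Fezf2* (22), *Atf3* (20) and *App* (19). These genes were spread over 10 to 24 cells each, with at most 10 UMIs in a cell. In the *Aire* trace library a row named *GFP*, which was read here as the ZsGreen reporter although the files do not say so, had a UMI in 5 of the 10 T cell-like cells, with at most 6 UMIs, in 3 of the 9 cells of the *Tyrobp* cluster, in 26 of the 34 cells of the epithelial clusters and in 644 of 1334 cells outside the rule (48.3%, 45.6 to 51.0). The cell with 1452 *Jchain* UMIs was one of the 10 and had none. After thinning to 2000 UMIs the row was found in 1 of the 10 T cell-like cells, in 1 of the 9 cells of the *Tyrobp* cluster, in 18 of the 34 cells of the epithelial clusters and in 21.7% of the cells outside the rule.

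Across libraries the share of *Ptprc* *Laptm5* cells ran from 0.949% (0.520 to 1.59) in anti-RANKL week 4 to 3.82% (2.88 to 4.97) in the *Aire* trace library. It was 2.15% (1.40 to 3.16) and 1.49% (0.902 to 2.32) in the isotype controls of week 2 and 10. The anti-RANKL libraries of week 2, 6 and 10 stood at 2.45% (1.66 to 3.49), 0.959% (0.386 to 1.97) and 2.24% (1.48 to 3.24). Median depth differed between these libraries, and after thinning to 2000 UMIs, which left out 177 cells, the shares lay between 0.393% and 0.589%, from 3 to 8 cells in a library.

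The make-up of the cells also varied. T cell-like cells were between 0.0830% (0.00210 to 0.462, 1 cell, anti-RANKL week 10) and 0.721% (0.346 to 1.32, 10 cells, *Aire* trace) of the cells of a library. In anti-RANKL week 10, 26 of 27 cells were in epithelial clusters, 11 of them in the *S100a8* cluster. In anti-RANKL week 6, 4 of 7 were in the *Rag1* cluster. The isotype week 10 library had none in the tuft-like clusters, and 2 of its 31 cells with 6 or more tuft genes met the rule. In the *Aire* trace library 26 of 79 such cells did. The share of cells with 6 or more T cell genes, whether or not they met the rule, ran from 0.498% in anti-RANKL week 10 to 1.22% in anti-RANKL week 4.

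**Figure D5:**
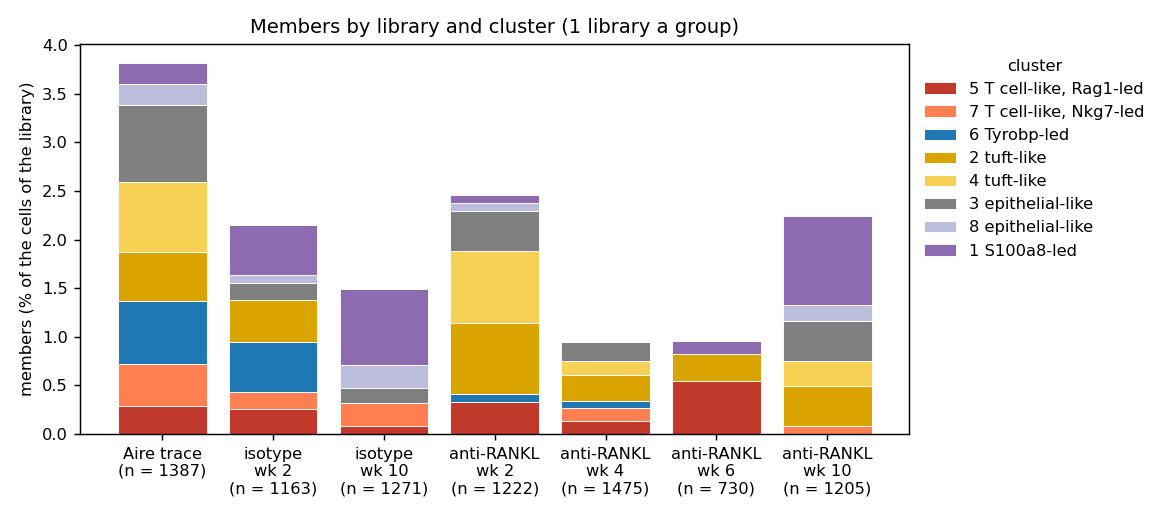
*Ptprc* *Laptm5* cells as a percent of the cells of each library, stacked by cluster, with the cells of each library below its name; each group is 1 library of 3 pooled thymi, so no error bar can be given. The T cell-like clusters stand at the foot of the bars and the *Tyrobp* cluster is absent from 3 libraries.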

How the data were processed

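Per the methods and, for versions, the submitters' processing notes, the authors counted UMIs with Cell Ranger 2.2.0 on mm10 and filtered cells in Seurat 2.3.4 to 200 to 7500 genes and at most 10% mitochondrial reads; no cell in the files lay outside these limits. As deposited by the authors, each value is a natural log, ln(1 + UMIs per 10000) of the cell, although the methods name another scale factor, and whole UMIs were recovered in all 8453 cells within 0.001. From the combined table only the cell names were read.

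Members and lists were chosen with earlier results of these data known. Members were clustered in scanpy 1.11.5 (2000 variable genes, 15 components, 10 neighbours, Leiden resolution 1). A cluster took the class of its most detected list, and stayed unnamed if markers of a different class outnumbered its own among its 10 leading genes or if fewer than 3 own markers were detected. These limits were set after the clusters were seen. Gene positions are GENCODE's. Named genes were those of the lists, the 10 leading genes of each cluster by fold of pooled CPM (pseudocount 1, at least 30% of cells), and the 10 carried genes, of which 1 is not reported here, without ribosomal, mitochondrial and sex-linked genes. The clustering and the epithelial RNA ratio were tested on simulated T cells, tuft cells and epithelial cells. The simulation held no myeloid, B or plasma cells, and all T cells of a run had the same epithelial share. No p-value was computed, since each group is 1 library.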

Additional observations from a re-analysis of the deposited data

How the results depend on the processing

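With 2 or more UMIs of each gene, the share of all cells meeting the rule was 0.698%. T cell-like clusters held 49.2% of the chosen cells and epithelial clusters 50.8%. Epithelial RNA in T cell-like cells was 38.6% of the level outside the rule. No cluster of a myeloid class formed at that setting, so these values may include myeloid cells. With *Ptprc* alone at 2 or more UMIs the share was 1.04%, with both genes after thinning 0.507%, and without cells over 2 library medians 1.75%. Cells chosen after thinning gave 42.9% T cell-like, 45.2% epithelial and 61.3% epithelial RNA. A resolution of 0.5 gave 10.3% T cell-like (18 cells) and 54.7% epithelial RNA. These are the size and level of the *Rag1* cluster alone, so the *Nkg7* cluster was no longer counted as T cell-like, and the epithelial share stayed at 72.0%. The cause of the other changes was not tested. Epithelial RNA was 19.2% without cells over 2 library medians, 33.0% as the median over libraries, 80.4% without *Ccl21a*, 22.7% as the median over genes and 28.0% with cells thinned. In 2 alternatives chosen after seeing the data it was 13.2% without the cells rich in *Psmb11* and *Prss16*, which had to lower it, and 33.6% without the cortical genes. Leaving out each library in turn gave 1.73% to 2.31% of cells, 14.9% to 24.6% T cell-like, 64.8% to 76.0% epithelial and 40.4% to 54.6% epithelial RNA. A resolution of 2, clustering without cycling genes and placing each cell by its own lists moved none of these shares or the epithelial RNA beyond their intervals. No paired analysis was possible because each group is 1 library. Depth limits the rule: 99 of 175 cells had 1 *Ptprc* UMI.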
